A study of Drosophila melanogaster with 6 samples.

Results

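The vacuolar H+-ATPase (V-ATPase) is the proton pump of lysosomes, endosomes and synaptic vesicles, and 34 of the 17483 genes in the deposited table encode its subunits or accessory proteins. They were taken by name, as rows whose symbol in the table or whose current symbol starts with Vha. A total of 20 had an FPKM (a fragment count scaled to transcript length and library size) of at least 1 in all 6 libraries and are called expressed here, and the other 14 are called low. RNA came from hand-dissected brains of 15-day-old flies of the white-eyed laboratory strain w1118 of Drosophila melanogaster. Normal food with spermidine, a polyamine, was given to the flies behind 3 libraries, and normal food alone to those behind the other 3. The labels give no dose, sex or number of brains, nor whether replicates were separate fly cultures. The p-values therefore reflect only how far these libraries spread, and part of that spread may be technical. All 8 neuronal and all 8 glial markers checked were expressed well enough to be tested.

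The pump has a cytosolic sector, V1, that hydrolyses ATP and a membrane sector, V0, that carries protons, and rotation of a central stalk couples them. In neurons the proton gradient it builds loads transmitters into synaptic vesicles, and in lysosomes it sets the acid pH at which hydrolases work during autophagy. The pump is also part of the lysosomal surface where TOR kinase senses amino acids, and in Drosophila the transcription factor Mitf is known to drive many of its genes. The comparison asked whether food with spermidine, a compound best known for inducing autophagy, changed the RNA of this pump in the brain of 15-day-old flies.

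RNA of the expressed V-ATPase genes differed little between the foods. Of the 21 members that passed a filter of at least 0.5 FPKM in at least 3 libraries, none passed the test (limma on log2(FPKM + 1), Benjamini-Hochberg adjusted p under 0.05 over all 10366 genes tested), against 4.74% of all genes tested, 3.21% higher and 1.52% lower. No tested member had an unadjusted p under 0.05 either, against 21.1% of all genes tested. With the p-values of the authors' deposited table, adjusted over those genes, 1 member was lower (Vha44) and none higher. The background there was 16.9% of all genes, 8.20% higher and 8.70% lower. Of the 20 expressed members, 11 had a higher and 9 a lower mean on the log2 scale with spermidine food, against 57.6% of all genes tested with a higher mean. Their median log2 fold change was 0.0068, beside 0.022 for all genes tested. Their median absolute log2 fold change was 0.028, beside 0.076 for all 9108 genes with at least 1 FPKM in every library. Their standard errors, from 0.039 to 0.12 with a median of 0.058, were close to the median of 0.063 of those genes. The 9108 genes were not matched to the members by level. The 95% intervals of 18 of the 20, all but Vha100-2 and Vha68-2, lay between -0.19 and 0.24 on the log2 scale.

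**Figure D1:**
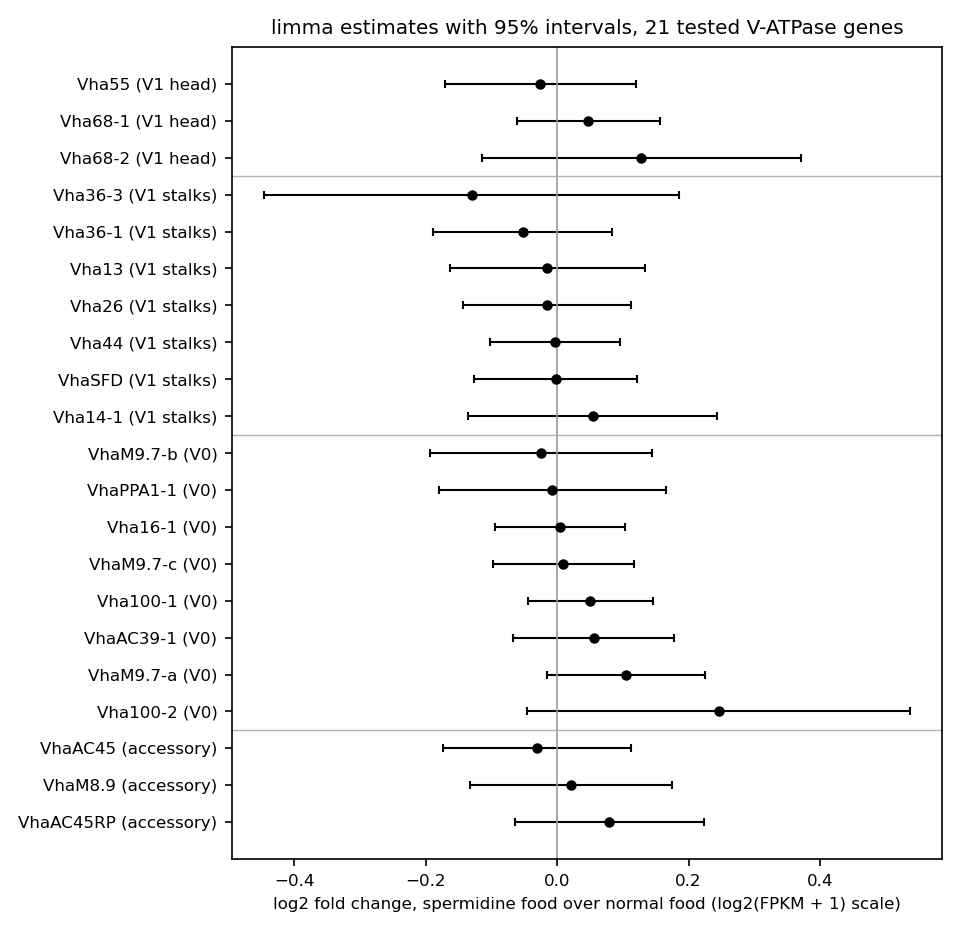
Log2 fold change of spermidine food over normal food for the 21 tested V-ATPase genes, on the log2(FPKM + 1) scale, as a point with its 95% limma interval (3 libraries a group). All 21 intervals cross 0, and the widest are those of Vha36-3, Vha100-2 and Vha68-2.

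Of the 4 genes of the catalytic head of V1, Vha68-1 and Vha55 were expressed most and at similar levels. Vha68-1 (FBgn0265262, 2L, 13000770 to 13004107 in the authors' Ensembl build 82 models) encodes subunit A, which hydrolyses ATP, and had 307, 303 and 324 FPKM in the spermidine food libraries, against 309, 293 and 302 FPKM in the normal food libraries. The groups overlapped, and the log2 fold change was 0.048 ± 0.045 (SE; limma, adjusted p = 0.60). Its partner in the hexamer, subunit B, comes from the single gene Vha55 (FBgn0005671, 3R, 12623762 to 12627829), which averaged 302 ± 17.1 FPKM on spermidine food and 307 ± 14.8 FPKM on normal food (SD, n = 3 each). The mean level of Vha55 over the 6 libraries, 305 FPKM, was thus near the 306 FPKM of Vha68-1. The second subunit A gene, Vha68-2 (FBgn0263598, 2L, 12974322 to 12978607), had 46.8, 44.7 and 45.9 FPKM on spermidine food and 46.5, 35.4 and 44.5 FPKM on normal food. Normal food replicate 2 stood well below the others, which lay close together, and the log2 fold change of Vha68-2 was 0.13 with an interval from -0.11 to 0.37. It was 0.010 without normal food replicate 2 and 0.20 without normal food replicate 1.

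The 6 expressed stalk genes of V1 also had overlapping groups. Vha13, the gene of subunit G in the outer stalk, had the highest level of all members, with 407, 411 and 438 FPKM on spermidine food and 451, 399 and 419.8 FPKM on normal food. Vha26, which encodes the outer stalk subunit E, averaged 250.3 ± 9.27 FPKM on spermidine food and 253 ± 13.2 FPKM on normal food (SD, n = 3 each). Of the rotor subunits D and F, Vha36-1 had 178, 176 and 178 FPKM on spermidine food and 199, 172 and 183 FPKM on normal food. Vha14-1 had 175, 181 and 187 FPKM on spermidine food and 186, 155 and 184 FPKM on normal food. The spermidine food libraries lay inside the range of the normal food libraries for Vha36-1, and 1 of them lay above it for Vha14-1. VhaSFD encodes subunit H, which regulates the coupling of both sectors, and averaged 113 ± 1.93 FPKM on spermidine food and 113 ± 7.13 FPKM on normal food (SD, n = 3 each).

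Vha44 was the member on which the measures parted. It encodes subunit C, the clamp between V1 and the membrane that is released when the pump comes apart. Its FPKM values were 193, 198 and 196 on spermidine food and 204, 189 and 195 on normal food, a log2 fold change of -0.0036 ± 0.041 (SE; limma, adjusted p = 0.971). The authors' deposited table gives a mean normalized count of 18643 on spermidine food and 20727 on normal food, a fold change of -1.11 with an unadjusted p of 0.00033 (0.0034 adjusted over the genes tested). The log2 ratio of mean counts was -0.15, while that of mean FPKM was -0.0043. Of the 9933 tested genes with both ratios, 6.58% had a count ratio at least as far below their FPKM ratio as Vha44.

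Among the other 19 expressed members the count ratio followed the FPKM ratio closely. The gap, count minus FPKM on the log2 scale, had a median of -0.014 over the 20 members and -0.015 over all genes tested. After Vha44 at -0.15, the widest gaps were those of VhaM9.7-b at -0.066 and VhaM9.7-a at -0.032, and the other 17 lay at -0.023 or closer to 0. The same 3 genes had the widest spread of annotated transcript lengths among the expressed members. The longest transcript of Vha44 has 3875 bases and the shortest 1431, a ratio of 2.71, and the ratios are 1.74 for VhaM9.7-b and 1.51 for VhaM9.7-a, while no other expressed member exceeds 1.35. This was seen after the values were known. FPKM divides by transcript length and a count does not, and the part of transcript usage in the gap was not tested. Vha44 (FBgn0262511, 2R, 16324813 to 16336637) also overlaps Hmgs on the opposite strand by 548 bases. The mean normalized counts of Hmgs were 2253 on spermidine food and 2314 on normal food in the authors' deposited table, with an unadjusted p of 0.522.

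**Figure D2:**
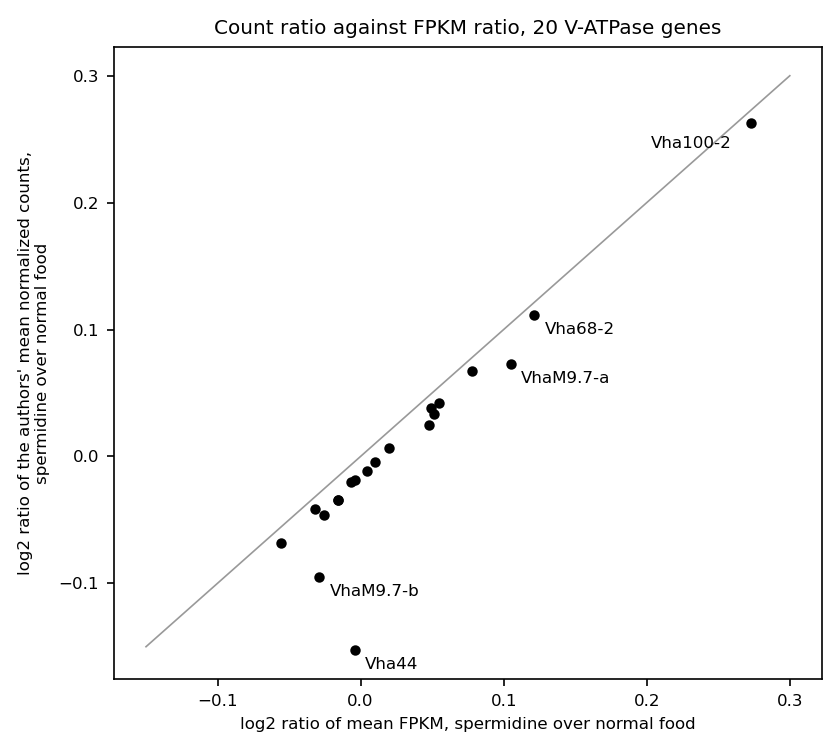
Log2 ratio of the authors' mean normalized counts (vertical) against the log2 ratio of mean FPKM (horizontal), spermidine food over normal food, for the 20 expressed V-ATPase genes, with the line of equal ratios. Vha44 lies at -0.0043 by FPKM and -0.15 by counts, VhaM9.7-b is the next farthest from the line, and the other points run just under it.

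In the membrane sector, the proton path had equally close values. Vha16-1 (FBgn0262736, 2R, 6625242 to 6633090), the gene of the proteolipid subunit c that forms the rotating ring, had 395, 390.2 and 374 FPKM on spermidine food and 387, 384 and 385 FPKM on normal food. Its log2 fold change of 0.0041 had an interval from -0.095 to 0.10. Vha100-1, the gene of the neuronal form of subunit a, through which protons reach the ring, had 208, 213 and 223 FPKM on spermidine food and 205, 208 and 208 FPKM on normal food. The highest values were 2 of the spermidine food libraries, the groups overlapped, and the log2 fold change was 0.051 ± 0.039 (SE; limma, adjusted p = 0.518). VhaPPA1-1, which encodes the ring subunit c″, averaged 179 ± 13.1 FPKM on spermidine food and 179.8 ± 11.8 FPKM on normal food (SD, n = 3 each). VhaAC39-1 encodes subunit d, which joins the ring to the central stalk, and averaged 168 ± 4.19 FPKM on spermidine food and 162 ± 9.16 FPKM on normal food (SD, n = 3 each).

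Vha100-2 had the largest log2 fold change of the expressed members and the lowest level. It encodes another form of subunit a, known in flies from gut and Malpighian tubule. Its FPKM values were 7.07, 6.55 and 7.58 on spermidine food and 7.06, 4.97 and 5.52 on normal food. Normal food replicate 1 lay among the spermidine food libraries and the other normal food libraries below them. The log2 fold change was 0.25 ± 0.12 (SE), with an interval from -0.045 to 0.54 (limma, adjusted p = 0.313). It was 0.15 without normal food replicate 2 and 0.37 without normal food replicate 1 (limma, adjusted p = 0.539 and 0.0914). In the authors' deposited table its fold change is 1.18 with an unadjusted p of 0.013, or 0.071 adjusted over the genes tested. The summed FPKM of 18 gut and tubule markers was between 103 and 129 on spermidine food and between 96.3 and 101 on normal food, with none of the 18 at 0 in all libraries and none of the 9 tested past the threshold. Their part in the level of Vha100-2 was not tested. Vha100-2 (FBgn0028670, 3R, 18390323 to 18399169) overlaps Vti1b on the opposite strand by 2175 bases.

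The small subunit e has 4 genes named VhaM9.7, and the expressed 3 differed in level. VhaM9.7-a (FBgn0035521, 3L, 4262705 to 4263464) had 414, 391 and 381 FPKM on spermidine food and 373, 355 and 374 FPKM on normal food. Every spermidine food library was above every normal food library. This gene alone among the 20 expressed members had groups that did not overlap, against 28.0% of all genes tested, in either direction. VhaM9.7-a had the smallest p of the members, with a log2 fold change of 0.10 ± 0.050 (SE; limma, unadjusted p = 0.078, adjusted p = 0.301). VhaM9.7-b had 80.7, 77.4 and 77.0 FPKM on spermidine food and 88.6, 73.7 and 77.7 FPKM on normal food. VhaM9.7-c averaged 18.2 ± 0.492 FPKM on spermidine food and 18.1 ± 0.682 FPKM on normal food (SD, n = 3 each), and its whole span of 848 bases lies within that of Teh2 on the same strand, so its reads may be shared with Teh2, which had between 156 and 157 FPKM on spermidine food and between 165 and 175 FPKM on normal food.

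The 3 accessory proteins help the pump to assemble and to reach its membranes. VhaAC45, the fly counterpart of mammalian ATP6AP1, averaged 126 ± 5.05 FPKM on spermidine food and 129 ± 8.76 FPKM on normal food. The related gene VhaAC45RP averaged 254 ± 8.77 FPKM on spermidine food and 240.3 ± 16.1 FPKM on normal food. VhaM8.9, now named ATP6AP2 after the prorenin receptor, averaged 187 ± 9.36 FPKM on spermidine food and 184 ± 12.7 FPKM on normal food (SD, n = 3 each for all of these genes). All these groups overlapped, and VhaAC45RP had the largest log2 fold change of the accessory genes, 0.079, with an interval from -0.064 to 0.22. Its value was 0.030 without normal food replicate 2 and 0.13 without normal food replicate 1.

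**Figure D3:**
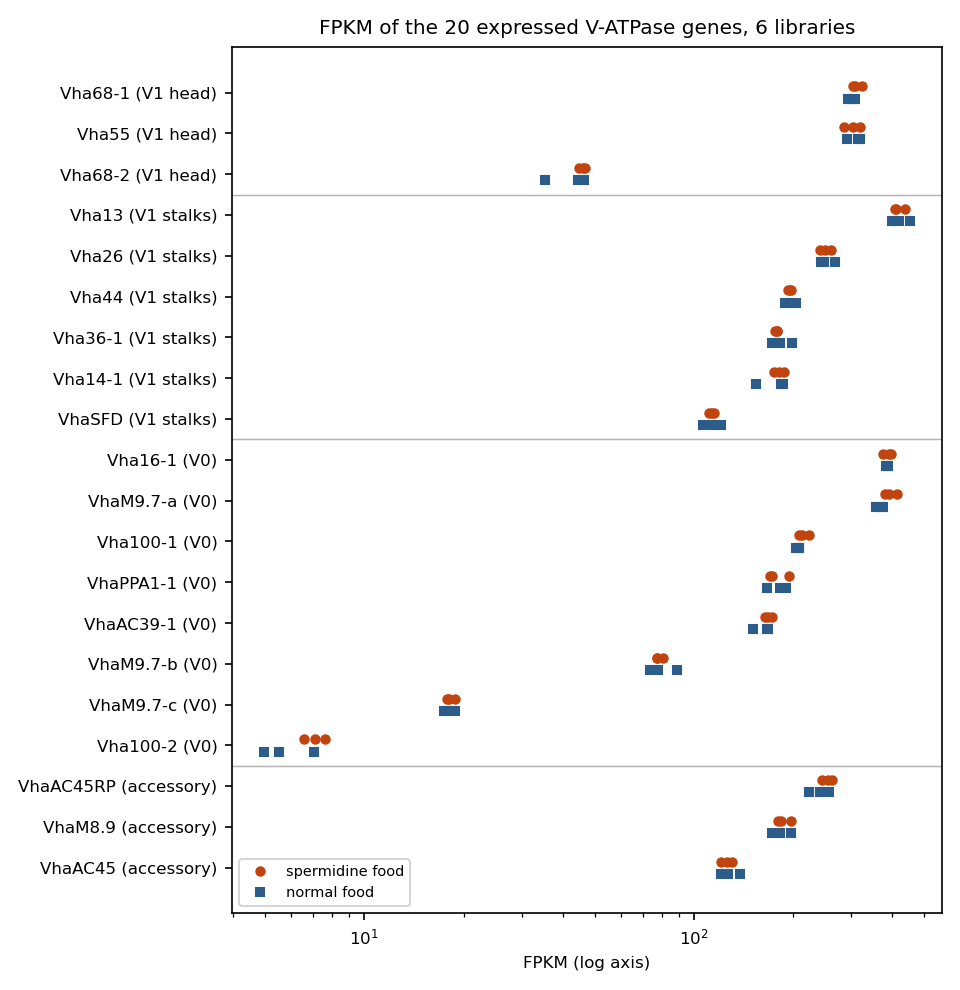
FPKM (log axis) of the 20 expressed V-ATPase genes by sector in each library, with spermidine food as circles above and normal food as squares below. Points of both foods overlap in every gene except VhaM9.7-a, and 16 of the 20 genes exceed 100 FPKM in all 6 libraries.

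By level, the expressed members ranged from 421 FPKM for Vha13 to 6.46 FPKM for Vha100-2. Vha13, Vha16-1 and VhaM9.7-a led with means over all libraries of 421, 386 and 381 FPKM, of which Vha13 and Vha16-1 did not overlap. Vha68-1 and Vha55 followed with overlapping ranges, below every value of the leading 3. Vha26 at 252 FPKM and VhaAC45RP at 247 FPKM overlapped in turn. Next came Vha100-1 at 211 FPKM and Vha44 at 196 FPKM, whose ranges just missed each other. VhaM8.9, Vha36-1, VhaPPA1-1, Vha14-1 and VhaAC39-1 lay between 165 and 185 FPKM with overlapping ranges. VhaAC45 at 127 FPKM and VhaSFD at 113 FPKM overlapped as well, and below 100 FPKM in every library were VhaM9.7-b, Vha68-2, VhaM9.7-c and Vha100-2. FPKM overstates very short genes, and VhaM9.7-a, Vha13, Vha14-1 and VhaM9.7-c have no annotated transcript longer than 943 bases. The coefficient of variation over the 6 libraries was between 1.89% and 15.6% for the 20 expressed members, and it was under 10% for 19 of them. Its median of 4.95% stood beside 6.57% for all genes with at least 1 FPKM in every library. Those genes were not matched to the members by level, and 16 of the 20 members exceeded 100 FPKM in all 6 libraries. In the authors' mean normalized counts, the 34 members made up 0.676% of the sum over all genes on spermidine food and 0.678% on normal food.

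The expressed members shared the offsets of single libraries more than a difference between foods. Spermidine food replicate 3 held the highest value of 7 of the 20, against 21.4% of all genes tested, and normal food replicate 1 that of 9, against 24.4%. Normal food replicate 2 held the lowest value of 14 of the 20, against 32.0% of all genes tested. The median deviation of the members from their own means, on the log2(FPKM + 1) scale, was -0.0024, -0.0099 and 0.052 in spermidine food replicates 1, 2 and 3 and 0.076, -0.082 and -0.011 in normal food replicates 1, 2 and 3. All genes tested showed part of the dip in normal food replicate 2, with a median deviation of -0.039 there. After scaling by the median ratio over all genes tested, spermidine food replicate 2 held the lowest value of 7 members (10.3% of all genes tested) and normal food replicate 2 that of 6 (20.3%). Normal food replicate 1 then held the highest value of 11 members (21.1%). Normal food replicate 1 also stood apart in photoreceptor genes, since the summed FPKM of 12 markers was 13806, 10217 and 12240 in spermidine food replicates 1, 2 and 3, against 1910, 11110 and 7085 in normal food replicates 1, 2 and 3. None of the 12 was at 0 in all libraries or past the threshold. The summed FPKM of 12 muscle markers was likewise farthest out in normal food replicate 1, with 30.0, 63.7 and 48.8 on spermidine food and 96.3, 38.5 and 53.1 on normal food. None was at 0 in all libraries, and none of the 8 tested passed the threshold by limma. The authors' adjusted p-values called 2 of these 8 lower and none higher, against 8.70% of all genes tested called lower. The part of photoreceptor and muscle RNA in the V-ATPase levels was not tested.

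**Figure D4:**
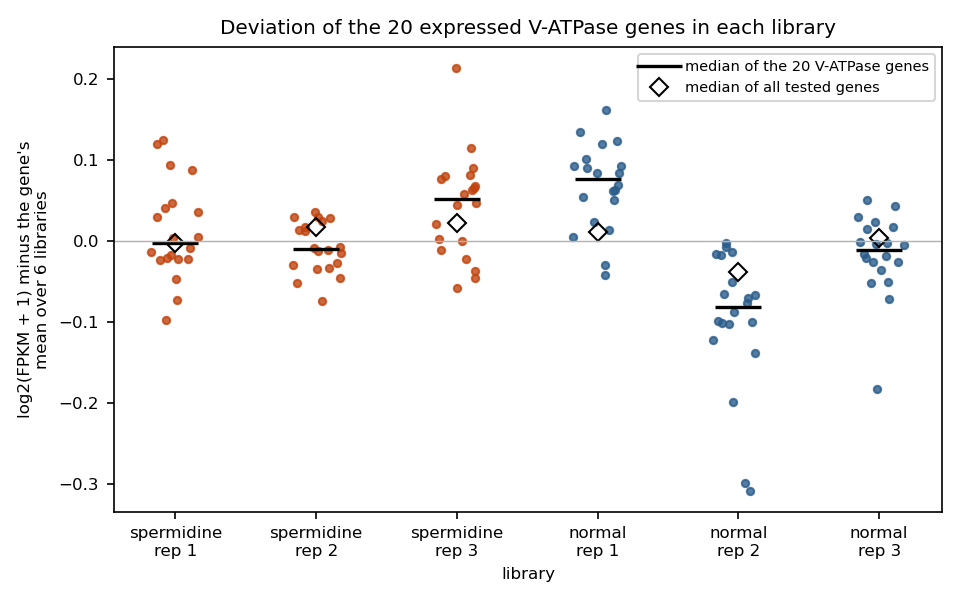
Deviation of log2(FPKM + 1) from each gene's mean over 6 libraries (vertical) for the 20 expressed V-ATPase genes in each library (horizontal), with their median as a bar and the median of all genes tested as a diamond. The bar is highest in normal food replicate 1, at 0.076, and lowest in normal food replicate 2, at -0.082, so the extremes belong to the same food.

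Of 8 subunits with several genes, each took most of its RNA from a single gene in every library. Vha68-1 made up 86.8%, 87.1% and 87.6% of the FPKM of subunit A on spermidine food and 86.9%, 89.2% and 87.2% on normal food. Vha100-1 made up between 96.7% and 96.96% of subunit a on spermidine food and between 96.7% and 97.6% on normal food. VhaM9.7-a made up 80.8%, 80.4% and 79.9% of subunit e on spermidine food and 77.6%, 79.5% and 79.7% on normal food. The spermidine food libraries were all higher for VhaM9.7-a, by 1.4 percentage points on average (exact permutation test, two-sided, p = 0.1, the smallest that 3 against 3 libraries allow, and 0.4 adjusted over the 8 subunits). Without normal food replicate 1 that difference was 0.744 percentage points. The share of Vha36-1 in subunit D was 99.6% ± 0.110 on spermidine food and 99.4% ± 0.0463 on normal food (SD, n = 3 each), with the same exact permutation p of 0.1 and adjusted p of 0.4. For the other 6 subunits the exact permutation p was between 0.4 and 1.

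The 14 low members never exceeded 0.736 FPKM, and together they had a summed mean normalized count of 85.9 on spermidine food and 101 on normal food in the authors' deposited table, beside 323928 and 326002 for all members. In surveys of fly tissues such second copies are known mostly from testis or gut. Of the 14, 6 have a single exon in the Ensembl annotation, against 3 of the 20 expressed members, and 4 have more than 1 annotated transcript, against 15 of the expressed members. Several are close neighbours of an expressed gene. Vha68-3 lies 178 bases from Vha68-2 on 2L and averaged 0.034 FPKM over the 6 libraries, against 44.0 FPKM for Vha68-2. Vha100-4 lies 517 bases from Vha100-2, and VhaPPA1-2 lies 2052 bases from VhaPPA1-1. Vha100-4 and VhaPPA1-2 were each above 0 in only spermidine food replicate 2 and normal food replicate 2, with a mean normalized count of 0.32 on spermidine food and 0.35 on normal food. Of the neighbours Vha16-2 and Vha16-3 on 3L, neither was expressed. Vha16-2 is listed at 0 in all spermidine food libraries and at 0, 0.050 and 0.0481 FPKM in the normal food libraries, while its mean normalized count is 0 in both groups. VhaM9.7-d is listed at 0 in all 6 libraries.

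Vha36-2, a second gene of the rotor subunit D, had the smallest unadjusted p among the low members when no filter was set. The log2 ratio of mean FPKM was -1.21 for Vha36-2, and was farther from 0 for Vha16-5 (-2.32), Vha16-3 (1.56) and Vha100-5 (1.30), which had mean normalized counts under 7 in both groups. Vha36-2 (FBgn0033706, 2R, 12257282 to 12258652) had 0.278, 0.204 and 0.203 FPKM on spermidine food and 0.571, 0.457 and 0.558 FPKM on normal food. The groups did not overlap. It missed the filter because only normal food replicates 1 and 3 reached 0.5 FPKM. With no filter its log2 fold change was -0.32 ± 0.048 (SE; limma, adjusted p = 0.046), the only call among the 33 members that could then be tested, against 1.67% of all genes, 1.19% higher and 0.479% lower. That call ended without each of the 6 libraries in turn (limma, adjusted p from 0.087 to 0.18), with the replicate number as a block (0.12) and with a pseudocount of 0.1 (0.080). The log2 fold change was -0.94 with the smaller pseudocount. A block balanced over both foods cannot change it, so only the p-value was tested there. The call held under median-ratio scaling (limma, adjusted p = 0.036), without the mean-variance trend (0.047) and by the authors' p-value adjusted over unfiltered genes (0.015). In the authors' deposited table the mean normalized counts of Vha36-2 are 13.4 on spermidine food and 33.0 on normal food, a log2 ratio of -1.30. The signed fold change deposited there is -1.44, which is smaller than the ratio of these means, with an unadjusted p of 0.0012. Testis markers were low in all libraries, with a summed FPKM over 18 genes between 9.51 and 10.9 on spermidine food and between 10.2 and 11.9 on normal food. Of these 18, Mst84Da, Mst84Db, Mst84Dc and Mst98Cb were at 0 in every library, and none of the 5 tested passed the threshold. Their part in the values of Vha36-2 was not tested.

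The remaining low members had overlapping groups with 2 exceptions. Those with overlap included Vha14-2, Vha16-4, Vha100-3 and VhaAC39-2, with means over the 6 libraries of 0.33, 0.19, 0.031 and 0.033 FPKM. Among the 13 that missed the filter, Vha16-3 and Vha100-5 were the others whose groups did not overlap, so that 3 of 13 did not. The share was 10.1% of the genes under the filter with a signal in any library, which leaves out VhaM9.7-d. Vha16-3 had 0.0950, 0.0986 and 0.235 FPKM on spermidine food and 0.0948, 0.0511 and 0 FPKM on normal food. Its groups thus almost touched, and its mean normalized counts were 2.81 on spermidine food and 0.96 on normal food. Vha100-5 had 0.0645, 0.0669 and 0.0533 FPKM on spermidine food and 0.0214, 0.0462 and 0.0074 FPKM on normal food, from mean normalized counts of 6.78 on spermidine food and 2.31 on normal food. Vha36-3, the only low member that passed the filter, had 0.268, 0.490 and 0.736 FPKM on spermidine food and 0.669, 0.541 and 0.673 FPKM on normal food (limma, adjusted p = 0.622). Its lowest and highest values both came from spermidine food libraries.

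**Figure D5:**
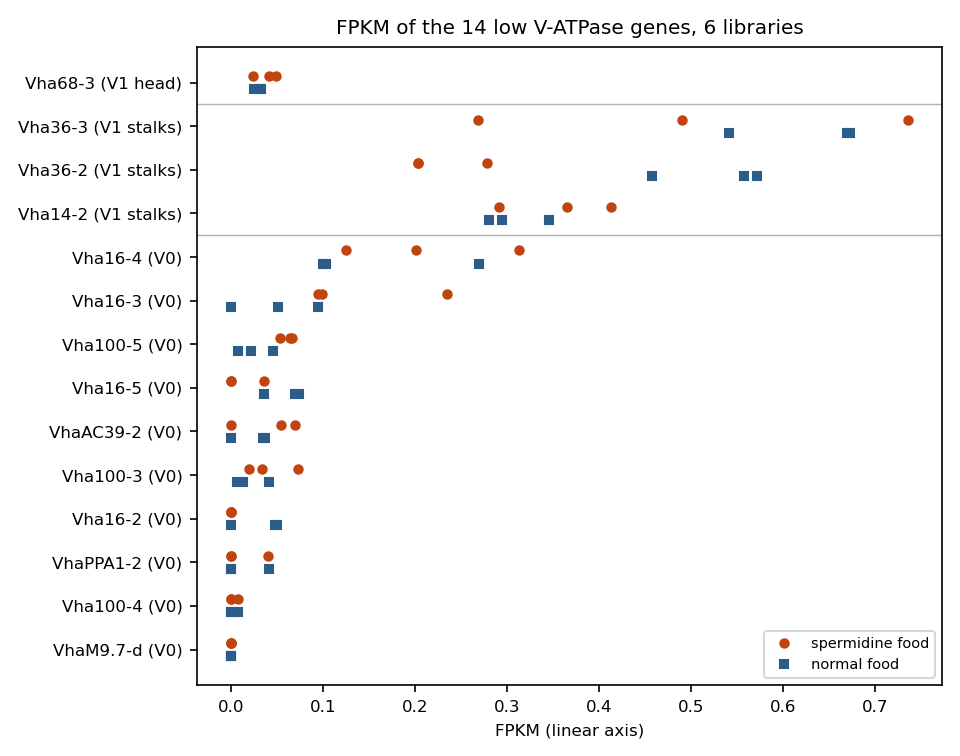
FPKM (linear axis) of the 14 low V-ATPase genes by sector in each library, with spermidine food as circles above and normal food as squares below. Vha36-2 has its 3 spermidine food points below 0.3 FPKM and its 3 normal food points above 0.4 FPKM, and VhaM9.7-d is at 0 throughout.

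Genes that act with the pump were described from lists chosen with earlier results of these data known. Of 6 assembly and regulator genes none passed the test, and 2 had an unadjusted p under 0.05, against 21.1% of all genes tested. By the authors' p-values, adjusted over the tested genes, Mitf and mtd were lower and none higher. The background there was 8.70% of all genes tested lower and 8.20% higher. Mitf had 19.97, 20.9 and 18.3 FPKM on spermidine food and 21.96, 22.2 and 21.6 FPKM on normal food. All spermidine food libraries were lower, with a log2 fold change of -0.15 ± 0.055 (SE; limma, adjusted p = 0.200). In the authors' deposited table the fold change of Mitf is -1.20 with an unadjusted p of 3e-06. The gene mtd, whose mammalian relative Oxr1 belongs to a family that binds V1, had 272, 282 and 274 FPKM on spermidine food and 299, 313 and 295 FPKM on normal food (limma, adjusted p = 0.136). The rabconnectin genes Rbcn-3A and Rbcn-3B, which promote assembly of both sectors, had log2 fold changes of 0.077 ± 0.052 and 0.048 ± 0.040 (SE). CG5969 had 14.2, 13.6 and 13.6 FPKM on spermidine food and 12.9, 13.2 and 13.5 FPKM on normal food (limma, adjusted p = 0.487). CG7071 had at most 0.844 FPKM in the spermidine food libraries and 0.582 FPKM in the normal food libraries, with a mean normalized count of 0 in both groups in the authors' deposited table, so nothing is read from it.

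Vesicular transporters, which spend the proton gradient to load transmitters, had a median log2 fold change of -0.12 over 5 genes, none of which passed the test. VAChT, the acetylcholine transporter, had 55.9, 55.6 and 52.8 FPKM on spermidine food and 61.8, 61.6 and 61.5 FPKM on normal food. Its groups did not overlap, and its log2 fold change was -0.17 ± 0.034 (SE; limma, adjusted p = 0.0505, just above the threshold). VGlut, the glutamate transporter, had 74.5, 77.6 and 80.1 FPKM on spermidine food and 98.8, 87.6 and 87.9 FPKM on normal food (limma, adjusted p = 0.078). By the p-values of the authors' deposited table, adjusted over the tested genes, 4 of the 5 were lower, against 8.70% of all genes tested. Vmat, the monoamine transporter, was among them at a fold change of -1.15, although its FPKM averaged 150.2 ± 3.93 on spermidine food and 144 ± 7.32 on normal food (SD, n = 3 each). The summed FPKM of 8 neuronal markers moved the same way, between 1787 and 1796 on spermidine food and between 1853 and 1951 on normal food, with none at 0 in all libraries. By limma 2 of the 8 (fne and Syn) were lower, against 1.52% of all genes tested. By the authors' adjusted p-values 6 of the 8 were lower and none higher, against 8.70% of all genes tested called lower. The summed FPKM of 8 glial markers overlapped, between 2209 and 2284 on spermidine food and between 2005 and 2241 on normal food, with none past the threshold by limma. The authors' adjusted p-values called 1 of these 8 (Gat) lower and none higher. In RNA from whole brains, fewer cells of a type and less RNA per cell cannot be told apart, and the part of cell composition in these values was not tested.

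Of 21 tested genes of lysosomal enzymes and membrane proteins, 2 rose and 19 did not pass, none falling, with a median log2 fold change of 0.14. The share of all genes tested that rose was 3.21%. An unadjusted p under 0.05 was found for 9 of the 21, against 21.1% of all genes tested. LManII, a lysosomal alpha-mannosidase, had 82.1, 69.0 and 75.4 FPKM on spermidine food and 53.2, 46.4 and 55.2 FPKM on normal food, a log2 fold change of 0.54 ± 0.087 (SE; limma, adjusted p = 0.027). Cln7, a lysosomal membrane protein, averaged 4.42 ± 0.192 FPKM on spermidine food and 3.14 ± 0.134 FPKM on normal food (SD, n = 3 each; limma, adjusted p = 0.027). LManI and Gba1b, a glucocerebrosidase, had log2 fold changes of 0.40 and 0.53 without passing (limma, adjusted p = 0.052 and 0.058). By the p-values of the authors' deposited table, 8 of the 21 were higher and none lower, against 8.20% of all genes tested called higher. The summed FPKM of 10 fat body markers was between 9742 and 10757 on spermidine food and between 2023 and 2628.5 on normal food, with 4 of the 8 tested higher and Fbp2 at 0 in all libraries, and its part in the lysosomal values was not tested. Over 16 tested genes of the Rag GTPases, Ragulator and the nutrient-sensing complexes around TOR, none passed, 1 (Iml1) had an unadjusted p under 0.05 and the median was 0.061. The mitochondrial F-type ATP synthase, a rotary relative of the V-ATPase, had a median of 0.11 over 13 tested genes, with none past the threshold by limma. Of these 13, 3 had an unadjusted p under 0.05, against 21.1% of all genes tested. By the authors' adjusted p-values 3 were higher and none lower, against 8.20% of all genes tested called higher. The ATP synthase subunit gene ATPsynD had the smallest p of the 13, with 353, 383 and 380 FPKM on spermidine food and 351, 311 and 337 FPKM on normal food (limma, adjusted p = 0.216). No test of a difference between these lists and the V-ATPase genes was made.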

How the data were processed

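Libraries were made from dissected brains with a stranded mRNA kit, per the labels' protocols. HTSeq, Cufflinks and DESeq are named without versions or roles in the submitters' processing notes, and no aligner is named there. Per the file headers, Ensembl build 82 supplied the gene models. The authors deposited FPKM per gene and library, with a status from their software, and per group a mean normalized count, which is a signal with no value per library. They also deposited a signed fold change, treated as a score because its values skip the range from -1 to 1, and a p-value before adjustment. Of 11 sheets, the one with all 17483 genes was used. Coordinates are the table's, and all 34 members start and end at the same bases in the Ensembl release 115 annotation (BDGP6), from which transcripts, exons and overlaps were taken. Whether counting used strand is not stated, so reads of genes that overlap on opposite strands may be shared. Depth per library is unknown, and the mean normalized counts sum to 47904049 on spermidine food and 48052547 on normal food. FPKM sums per library ran from 615229 to 720639.

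Genes with a status other than OK in any library (215) were left out. Groups were compared with limma 3.58.1 (R 4.3.3) on log2(FPKM + 1), using a mean-variance trend and no covariates, two-sided, with Benjamini-Hochberg adjustment and a threshold of 0.05. The added 1 shrinks the fold changes of genes with low FPKM. Paralogue shares were compared by an exact permutation test. The fit was also run on simulated data with independent noise and no offsets shared by the genes of a library. These libraries do have such offsets, so nothing is concluded from that run. Every member is named, with up to 4 genes of smallest p from each related list and all assembly genes. The members and lists were chosen with earlier results of these data known. Identifiers of 17180 genes matched a current symbol, and 4 members (Vha13, Vha26, Vha44 and VhaAC39-1) were found by the table's symbol alone. Promoter and protein sequences were not used here.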

Additional observations from a re-analysis of the deposited data

How the results depend on the processing

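Of 293 alternative values of single members, from refits and the authors' fold changes, 30 had the other sign. They came from 13 members whose main log2 fold change was at most 0.054 in size. Another filter, the trend and the replicate block cannot change a log2 fold change here, so signs in that part of the 293 were fixed in advance. Of the tested members only Vha44 under the authors' p-values passed the threshold (-0.15). Signs turned under median-ratio scaling for Vha16-1 (-0.019), VhaM8.9 (-0.0022) and VhaM9.7-c (-0.012), under upper-quartile scaling for the same genes (-0.038, -0.021 and -0.030), and in the authors' fold change for Vha16-1 (-0.014). With each library left out, values ran from -0.057 to 0.032 for Vha13, -0.013 to 0.028 for Vha16-1, -0.066 to 0.016 for Vha55, -0.045 to 0.027 for Vha26, -0.030 to 0.026 for Vha44, -0.025 to 0.072 for VhaM8.9, -0.10 to 0.0013 for Vha36-1, -0.066 to 0.033 for VhaPPA1-1, -0.033 to 0.10 for Vha14-1, -0.073 to 0.022 for VhaAC45, -0.046 to 0.044 for VhaSFD, -0.080 to 0.050 for VhaM9.7-b and -0.014 to 0.037 for VhaM9.7-c. The difference between foods in the leading share, spermidine minus normal food, ran from -1.02 to 0.12 percentage points for subunit A and from -0.0078 to 0.0083 for subunit c″.

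The count of members past the threshold was 0 without each library and under each scaling, pseudocount, trend and replicate block, and 1, lower, with no filter (Vha36-2) and under the authors' p-values (Vha44). The median of the expressed members stayed between -0.034 and 0.043. The scalings moved the median of all genes tested from 0.022 to 0.0017 and -0.015. For all genes, 491 passed (333 higher, 158 lower), against 261 with no filter (186 and 75), 1752 by the authors' p-values (850 and 902) and between 55 and 322 without 1 library (49 to 239 and 6 to 94). Upper-quartile scaling called 329 higher and 258 lower, so the share called higher changed with scaling. Same-numbered libraries did not deviate together (correlations of -0.051, -0.10 and 0.018 over genes), and the replicate block gave 257 calls (183 and 74). For Vha36-2 the values without each library ran from -0.35 to -0.30. The cause of these changes was not tested. Without counts per library, precision rests on 3 libraries a group.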
